A study of Mus musculus with 18 samples.

Results

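The change between day 2 and day 4 of oligodendrocyte differentiation was measured in 3 control clones, named D7, D3 and E8 in the labels. The members were all control libraries labelled DIV2 or DIV4 (days in vitro), which makes 6 of the 18 libraries, with 1 library per clone and stage. The series compared control with Thap1 null clones of mouse oligodendrocyte progenitor cells (OPCs) at 3 stages. Thap1 encodes a zinc-finger transcription factor. Per the labels, every line was clonal and derived from primary neural stem cells, and OPCs were kept in OPC growth medium with PDGF-AA. The DIV2 and DIV4 groups were moved to oligodendrocyte differentiation medium with the thyroid hormone T3 at 40 µg/ml, and both genotypes received it. The control libraries were labelled control rather than Thap1 null, and shared the clonal origin, the medium and T3 with the null libraries. Each control clone is a single clonal line. The way the null clones were produced is not stated in the labels. The replicate is the clone, and a clone was sampled once at each stage. With the clone in the fit, p-values for the stage rest on how unequally the clones changed, with a variance partly drawn from all genes.

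Oligodendrocytes are the cells that wrap axons of the central nervous system in myelin. A progenitor that stops dividing passes through a newly formed, premyelinating state before it makes large amounts of myelin proteins such as MBP, together with the cholesterol and galactolipids of the membrane. Thyroid hormone promotes this step, and inhibitors such as the ID proteins hold it back.

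Values are TPM, a measure of transcript abundance that is corrected for transcript length and for the total of each library. TPM of protein-coding transcripts was summed per gene and rescaled so that the typical gene had the same level in all 6 libraries. Triplets of values are always given in the clone order D7, D3, E8. Changes are log2(TPM + 1) at DIV4 minus DIV2, paired by clone, and their standard errors (SE) and adjusted p-values come from limma over 10834 genes. Protein-coding transcripts took 29.4% to 31.8% of the deposited TPM at DIV2, and 20.8% (D7) to 38.8% (E8) at DIV4. A signal recognition particle RNA feature took 59.1% of the TPM of the DIV4 library of D7 and 37.6% to 42.6% in the other 5 libraries. The rRNA-like features took at most 2.42% in these 6 libraries, against 64.8% to 88.0% in the control OPC libraries. TPM keeps no read depth, so depth per library is unknown. The RNA came from whole cultures, in which fewer cells of a type and less RNA per cell cannot be told apart.

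All 6 libraries carried the defining genes of the oligodendrocyte lineage. Olig2, a lineage transcription factor, stood at 69.1, 55.01 and 65.3 TPM at DIV2 and at 73.4, 48.1 and 80.6 TPM at DIV4. Mbp, a major protein of the myelin sheath, was at 993 TPM or more in each library. Clone D7 stood apart from D3 and E8. Gfap, the intermediate filament of astrocytes, was 0.02, 28.9 and 28.8 TPM at DIV2 and 0.27, 155 and 358 TPM at DIV4, so it was close to 0 in both D7 libraries and well above 0 in the other 4. D7 was also the clone with the highest Mbp at both stages. Results are therefore given with and without D7 where that changes them.

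No gene passed an adjusted p of 0.05 for DIV4 against DIV2 (limma, 10834 genes tested, 0% called), while 1758 genes (16.2%) had an unadjusted p under 0.05, 880 of them higher (8.12%) and 878 lower (8.1%). The smallest adjusted p was 0.12. Of the tested genes, 1781 (16.4%) were higher at DIV4 in all 3 clones and 2564 (23.7%) were lower in all 3. The DIV4 libraries all lay above the DIV2 libraries for 672 genes (6.2%) and all below for 1131 genes (10.4%). Without D7, 631 genes (5.82%) were called, 460 higher (4.25%) and 171 lower (1.58%). That fit rests on 2 clones, and D7 had been set apart on values of these same libraries. Leaving out D3 or E8 instead called no gene. A further fit also took in the null libraries at DIV2 and DIV4, and so had more libraries for the spread of the changes. That spread is pooled over both genotypes, so its p-values do not measure the spread of the changes in the control clones alone. Over clones, the SD of the mean log2 change of the stress list described below was 0.65 in control and 0.04 in null clones. For the p53 list it was 0.08 and 0.19. In this fit 383 genes (3.56%) were called for the control change. Of these, 211 (1.96%) were higher and 172 (1.6%) lower, and all 383 had the same direction in the 3 control clones (all tested genes 16.4% higher and 23.7% lower). The call rests on the mean of those same 3 changes and favours genes in which they agree, so this is no separate evidence of agreement. A fit of all 18 libraries with 1 mean per group called 26 genes (0.25%), 18 higher (0.173%) and 8 lower (0.0769%). The fits without D7 and with 12 libraries shared 125 genes called higher and 57 called lower. In what follows a gene "passed with 12 libraries" or "passed without D7" when its adjusted p was under 0.05 in that fit.

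In single clones 46.2% of genes were higher at DIV4 in D7, 45.1% in D3 and 46.6% in E8. The changes were more alike between D3 and E8 than between D7 and either of them. Across the 10834 genes, which are not independent, the changes in D3 and E8 had a Pearson r of 0.65 (Spearman rho 0.55), and 69.0% of genes moved in the same direction. For D7 and D3 the r was 0.23 (rho 0.19) with 56.6% in the same direction, and for D7 and E8 it was 0.19 (rho 0.13) with 54.6%. The points share the 2 libraries of each clone. E8 changed over the widest range, with an SD over genes of 0.64, against 0.50 in D7 and 0.49 in D3. The difference between clones carried 56.8% of the summed squared variation of these genes, the stage 24.6%, and the rest, in which the clones changed unequally, 18.6%. The clone and the rest each cover 2 degrees of freedom, more than the stage does, so these shares are not directly comparable in size. The spread between clones was wider at DIV4: the median SD over clones was 0.16 at DIV2 and 0.28 at DIV4, and 173 genes at DIV2 against 563 at DIV4 spanned at least 4-fold between the lowest and highest clone.

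**Figure D1:**
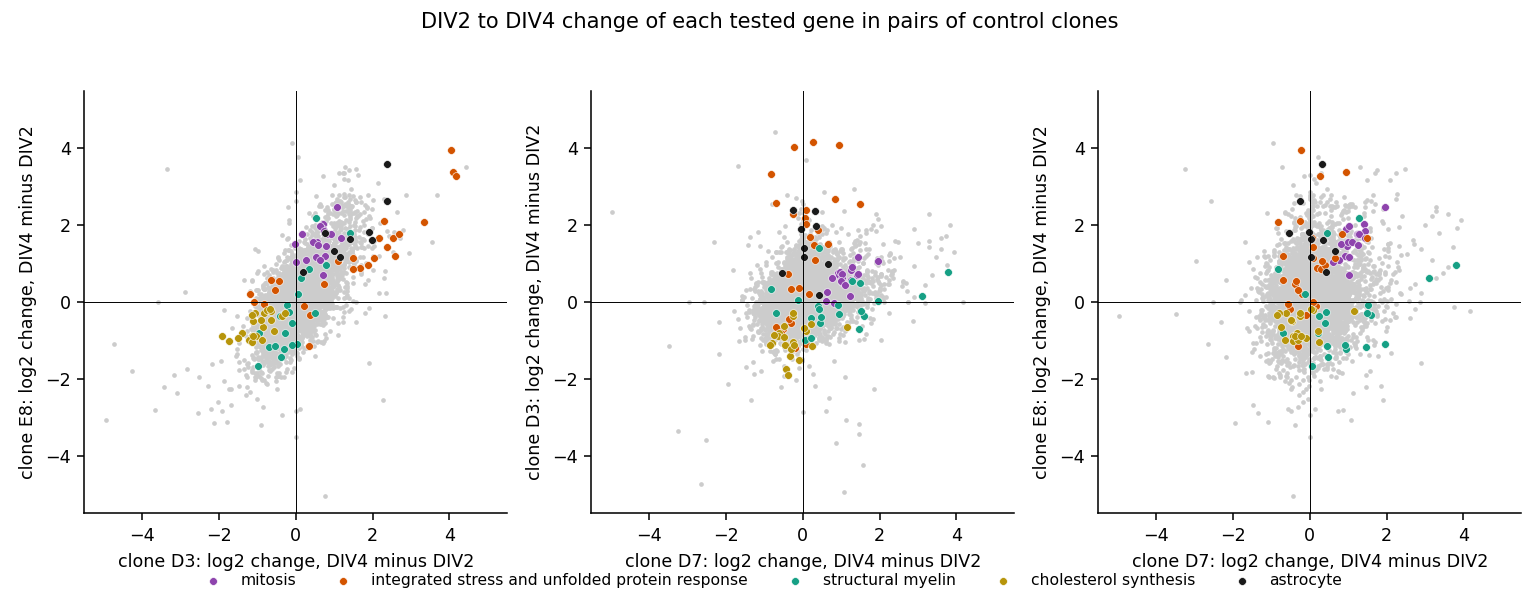
Log2 change from DIV2 to DIV4 of each of the 10834 tested genes in pairs of control clones (grey points), with 5 gene lists coloured. Changes in D3 and E8 lie along the diagonal (r = 0.65), changes in D7 do not line up with either (r = 0.23 and 0.19), and the stress and astrocyte genes have medians of 0.05 and 0.04 in D7 against 0.97 or more in D3 and E8.

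The 12 largest increases that went the same way in the 3 clones included histones, amino acid stress genes and genes of mature oligodendrocytes. The stress gene Trib3 had the largest fitted change (2.81), and none of the 12 passed the test over the 6 libraries. Ptgds, a prostaglandin D synthase of mature oligodendrocytes, stood at 89.1, 135 and 82.5 TPM at DIV2 and at 885, 364 and 461 TPM at DIV4. Its change of 2.40 ± 0.36 SE had a limma adjusted p of 0.153, and it passed with 12 libraries (adjusted p = 0.047) and without D7 (adjusted p = 0.0227). Car2, which encodes carbonic anhydrase II, went from 0.933, 0.485 and 0.776 TPM to 28.7, 2.67 and 6.77 TPM. Both genes were higher at DIV4 in every clone, without overlap between stages, and most so in D7. Car2 passed with 12 libraries (limma adjusted p = 0.0398). Erbb3, a neuregulin receptor subunit, measured 1.46, 2.46 and 0.335 TPM at DIV2 and 23.1, 9.42 and 5.87 TPM at DIV4, a change of 2.42 ± 0.33 SE (limma adjusted p = 0.153, or 0.0273 with 12 libraries). Sept4, a septin found in myelin, measured 20.3, 11.9 and 25.2 TPM and then 279.9, 41.5 and 69.7 TPM. The E8 and D3 values of Sept4 at DIV4 lay above all DIV2 values but far under the D7 value. Synpr, a synaptic vesicle membrane protein gene, went from 9.23, 1.998 and 7.46 TPM to 145, 10.95 and 31.1 TPM, higher in every clone, and passed with 12 libraries (limma adjusted p = 0.047).

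The remaining increases of that group were 4 histone genes (Hist1h3c, Hist1h1b, Hist1h3b and Hist1h2ab), described with the cell division genes, and Trib3, Slc7a5 and Pck2, described with the stress genes. The 12 largest decreases had adjusted p-values over the 6 libraries between 0.12 and 0.287. Tfrc, the transferrin receptor that brings iron into cells, had like values in the 3 clones, at 31.5, 30.96 and 30.7 TPM at DIV2 and 12.2, 9.82 and 11.05 TPM at DIV4. The change of -1.42 ± 0.13 SE passed with 12 libraries (limma adjusted p = 0.0273) and without D7 (limma adjusted p = 0.0133). All 3 DIV4 values lay under all 3 DIV2 values.

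Fhl2, a LIM-domain protein, went from 8.76, 8.58 and 14.4 TPM to 1.53, 1.18 and 0.724 TPM, a change of -2.41 ± 0.27 SE (limma adjusted p = 0.147, or 0.021 with 12 libraries). Snx18, a sorting nexin of membrane traffic, went from 154, 81.997 and 168 TPM to 54.5, 24.8 and 25.3 TPM. Sgk1, a kinase induced by glucocorticoids, went from 138, 74.2 and 108 TPM to 42.5, 36.3 and 29.5 TPM. Both passed with 12 libraries (limma adjusted p = 0.021 and 0.021), and their stages did not overlap. Rassf10, a Ras-association protein, and Cbln2, a synaptic organiser, passed with 12 libraries too, with changes of -1.98 and -1.40 there. Gipc1, a trafficking adaptor, passed with 12 libraries (limma adjusted p = 0.0458) but was 341, 133 and 273 TPM at DIV2 and 244, 40.99 and 55.97 TPM at DIV4, so that the DIV4 value of D7 lay above the DIV2 value of D3. Plcg2, a phospholipase C, and Ddc, aromatic amino acid decarboxylase, passed without D7 only, with changes of -2.38 and -2.31 in D3 and E8. D7 kept Ddc at 59.4 TPM at DIV4, while D3 and E8 had 5.04 and 5.88 TPM. Gm21836 and Rps2-ps6 were also among the decreases and are uncertain, since at least 93.9% of their 31-base words also occur in other genes.

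**Figure D2:**
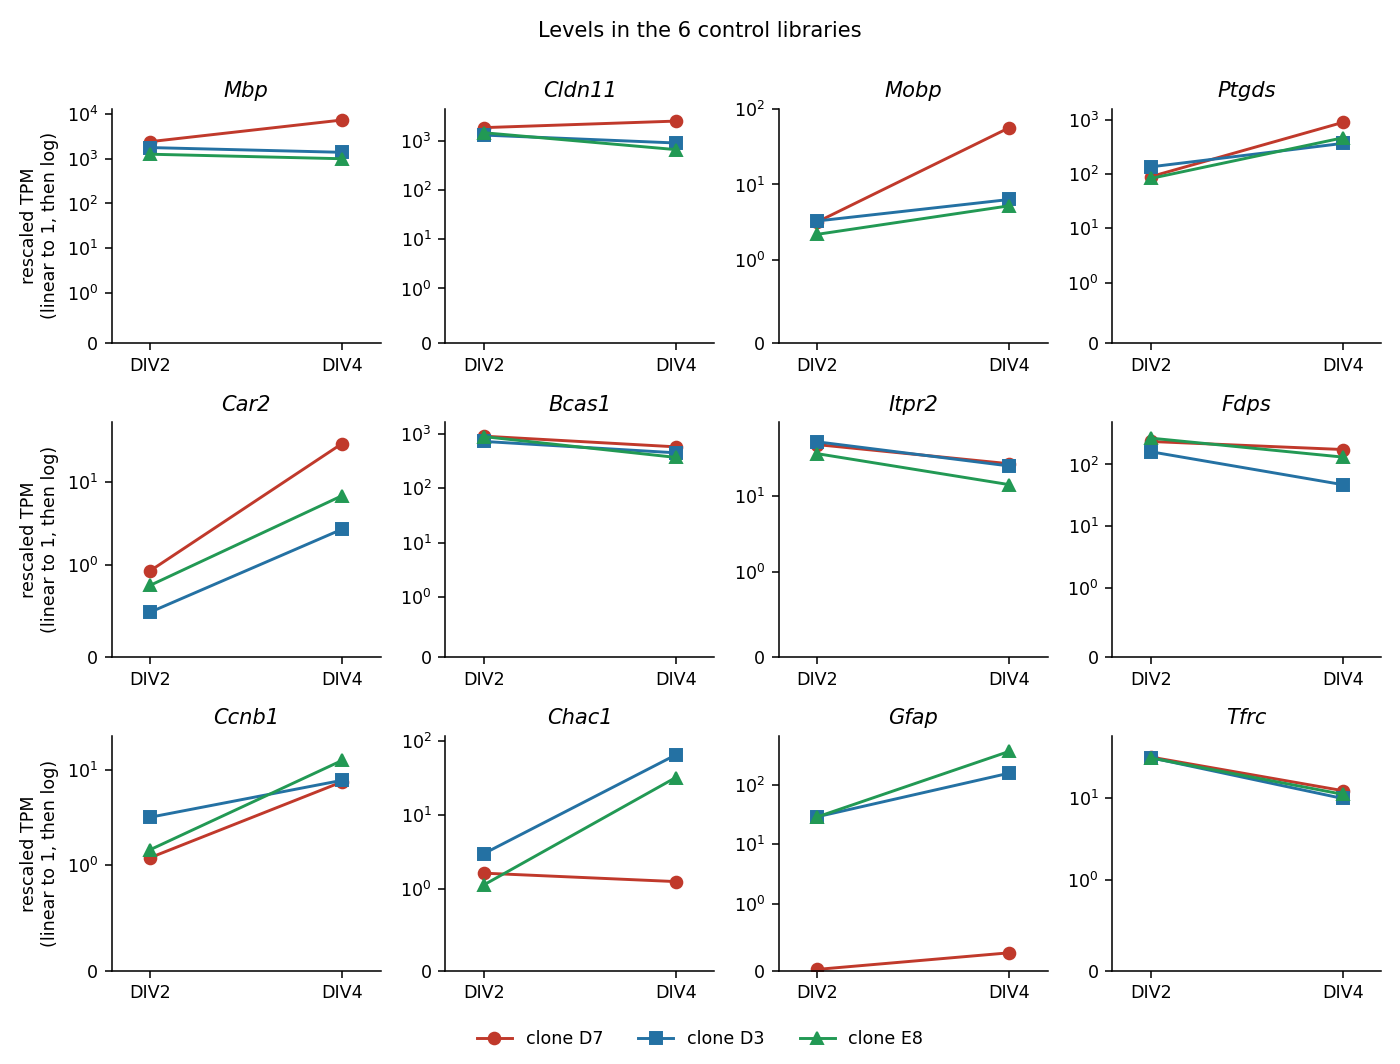
Rescaled TPM (linear up to 1, logarithmic above) of 12 genes at DIV2 and DIV4, with 1 line per control clone. Ptgds, Car2 and Ccnb1 go up and Bcas1, Itpr2 and Tfrc go down in all 3 clones, Mbp and Cldn11 go up in D7 only, and Chac1 and Gfap stay near the bottom in D7.

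Structural myelin genes did not share a direction across clones. None of the 21 tested members was called with 6 or with 12 libraries. Their median change was -0.005 (all tested genes -0.03), and the medians in the clones were 0.47, -0.18 and -0.36. Mbp stood at 2385, 1762 and 1253 TPM at DIV2 and at 7241, 1380.4 and 993 TPM at DIV4. It was higher at DIV4 in D7 and lower in D3 and E8. Mag, an adhesion protein at the axon side of myelin, was 299, 272 and 349.98 TPM and then 821, 168 and 154 TPM, and Mog, on the outer surface of myelin, was 85.2, 12.6 and 60.5 TPM and then 239, 18.2 and 49.9 TPM. In D7, 18 of the 21 members were higher at DIV4, against 8 in D3 and 6 in E8 (all tested genes 46.2%, 45.1% and 46.6%). The summed TPM of the list went from 10070.00, 5895 and 7581 at DIV2 to 19067, 4441 and 4089.5 at DIV4.

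Mobp, a protein of compact myelin, was the member with the largest change, 3.17, 3.27 and 2.17 TPM at DIV2 and 56.8, 6.31 and 5.2 TPM at DIV4. It was higher in every clone, and the change of 1.85 ± 0.61 SE was not called (limma adjusted p = 0.272, or 0.0942 with 12 libraries). Cldn11, the tight-junction claudin of myelin, was 1859.5, 1313 and 1467 TPM and then 2525, 907 and 666 TPM. Cnp, a phosphodiesterase of non-compact myelin, was 1639.8, 727 and 1119 TPM and then 1706, 367 and 354 TPM. Without D7, Cnp was called lower (log2 change -1.32, limma adjusted p = 0.0457). Gjc3 was the single member lower in all 3 clones, at 378, 189.9 and 174 TPM and then 233, 156 and 98.5 TPM. Among the other members higher in every clone, Mal, a raft protein of myelin, was 0.17, 1.59 and 0.742 TPM and then 1.85, 2.76 and 6.93 TPM, and Pmp22, a myelin protein better known from nerves, was 0.322, 3.57 and 1.54 TPM and then 0.789, 11.1 and 7.79 TPM. Pmp22 was called higher without D7 (limma adjusted p = 0.0165), and Tmem88b, a membrane protein, lower (limma adjusted p = 0.0317). Mag, Mog, Mal, Pmp22 and Tmem88b are named here after their values were seen.

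Some Mbp transcripts took shares that shifted the same way in the 3 clones, and others did not. Mbp is read from several promoter and splice forms, and forms with a 78-base exon (the second classic exon) are known from early differentiation. The authors' table gives 14 coding Mbp transcripts. ENSMUST00000133193 took 41.7%, 43.9% and 44.9% of the coding Mbp TPM at DIV2 and 51.6%, 53.6% and 53.8% at DIV4. ENSMUST00000075372 took 14.0%, 12.5% and 13.1% and then 5.40%, 5.55% and 5.93%. ENSMUST00000114674, which holds the 78-base exon, took 15.9%, 13.0% and 13.4% and then 5.30%, 9.56% and 6.83%. For these 3 transcripts the stages did not overlap. Summed over the 5 transcripts with the 78-base exon, the share was 22.5%, 20.9% and 20.03% at DIV2 and 20.9%, 18.1% and 17.0% at DIV4, lower in each clone. The members of that sum went different ways: ENSMUST00000152071 took 1.605%, 2.98% and 2.05% and then 2.49%, 3.15% and 4.13%, and ENSMUST00000153478 took 1.09%, 0.68% and 0.75% and then 5.91%, 1.09% and 2.36%, both higher in each clone. ENSMUST00000142850, without the exon, took 18.8%, 19.5% and 18.2% and then 20.7%, 19.2% and 18.9%, lower in D3 only. ENSMUST00000123251, with it, was higher in D7 and lower in D3 and E8. These shares are estimates for transcripts that overlap in sequence, they were chosen after their values were seen, and they were not tested.

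**Figure D3:**
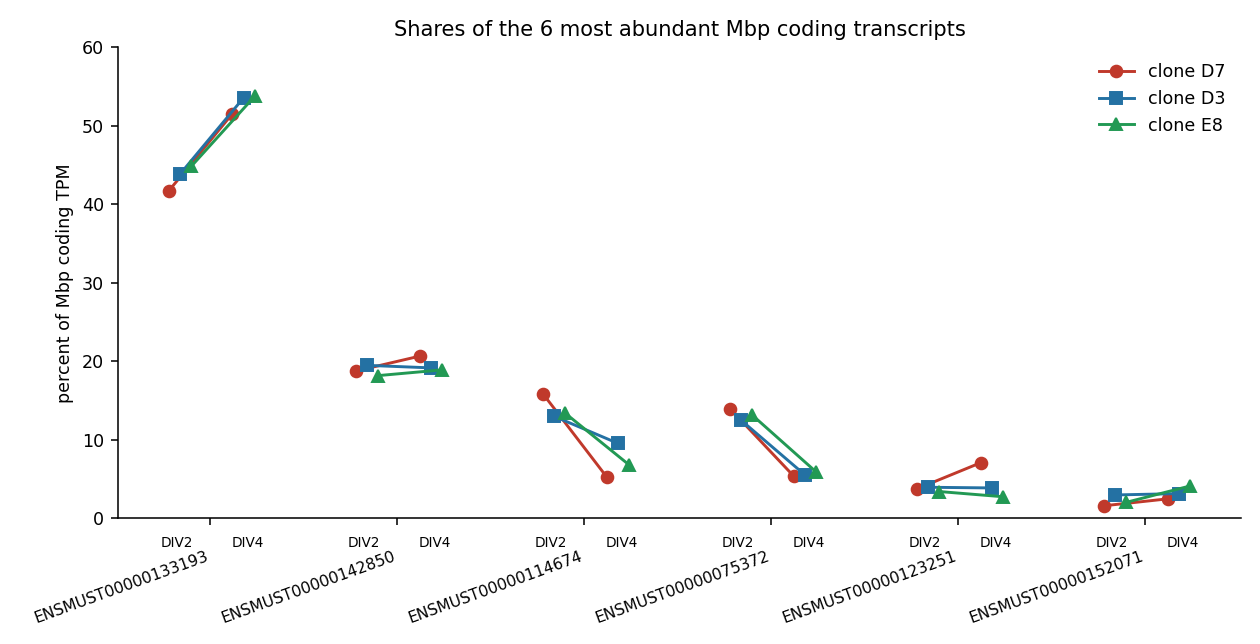
Share (percent) of the coding Mbp TPM taken by the 6 most abundant Mbp transcripts at DIV2 (left point) and DIV4 (right point) in each control clone. ENSMUST00000133193 goes from between 41.7% and 44.9% to between 51.6% and 53.8%, and ENSMUST00000075372 from at least 12.5% to at most 5.93%.

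Markers of mature oligodendrocytes, the genes turned on late in this lineage, were mostly higher. Of 20 tested members, 12 were higher in all 3 clones (all tested genes 16.4%) and none lower in all 3, and for 8 of them the stages did not overlap (all tested genes 6.2%). With 12 libraries 5 were called higher (Ptgds, Car2, Ermn, Ndrg1 and Cryab; all tested genes 1.96%) and none lower, and without D7 7 were called higher (4.25%) and 1 lower (1.58%). The median change was 0.73, with 0.94, 0.37 and 0.84 in the clones. Ermn, which shapes the oligodendrocyte cytoskeleton, was 0.843, 0.475 and 0.192 TPM at DIV2 and 6.74, 2.09 and 1.68 TPM at DIV4 (limma adjusted p = 0.0363 with 12 libraries). Ndrg1, a protein of myelinating cells that hypoxia also induces, was 0.279, 1.65 and 0.112 TPM and then 14.4, 7.48 and 4.47 TPM (limma adjusted p = 0.0381 with 12 libraries). Cryab, a small heat shock protein, was 0.14, 0.441 and 1.23 TPM and then 4.45, 2.45 and 14.8 TPM (limma adjusted p = 0.0326 with 12 libraries). Each of the 3 was higher at DIV4 in every clone. Pdlim2, a cytoskeletal adaptor, was 5.12, 1.42 and 1.99 TPM at DIV2 and 61.6, 2.93 and 9.52 TPM at DIV4. Qdpr, which regenerates tetrahydrobiopterin, was 48.8, 36.02 and 52.5 TPM and then 106, 44.8 and 69.4 TPM (log2 change 0.60 ± 0.19 SE, limma adjusted p = 0.269). Not every member followed. Adamts4, a protease of oligodendrocytes, was 68.4, 51.3 and 85.7 TPM and then 109, 29.9 and 30.7 TPM, the member called lower without D7 (log2 change -1.10, limma adjusted p = 0.0369). Csrp1 went up in D7, from 191 to 443 TPM, and was lower in D3 and E8. Trf, transferrin, was 103, 116 and 160.3 TPM and then 91.96, 64.8 and 163 TPM, and it shares 63.8% of its 31-base words with other genes. Aspa, Hapln2, Ppp1r14a, Adssl1 and Carns1 were under the filter of 1 TPM.

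Markers of newly formed oligodendrocytes were mostly lower. Of 18 tested members, 12 were lower in all 3 clones (all tested genes 23.7%) and none higher in all 3, and for 6 the stages did not overlap (all tested genes 10.4%). Limma called 2 lower with 12 libraries (1.6%) and 8 lower without D7 (1.58%). The median change was -0.77, with -0.21, -0.74 and -1.28 in the clones. Bcas1, a marker of early myelinating cells, was 922, 737 and 904 TPM at DIV2 and 586, 454 and 374 TPM at DIV4, a change of -0.87 ± 0.19 SE that passed with 12 libraries (limma adjusted p = 0.0391). Itpr2, an intracellular calcium channel, was 46.8, 50.9 and 35.6 TPM and then 26.3, 24.6 and 13.997 TPM (limma adjusted p = 0.0487 with 12 libraries). Fyn, a kinase that promotes process outgrowth and myelination, was 248, 275 and 284 TPM and then 153, 158 and 107 TPM. Ust, a sulfotransferase, was 16.6, 22.6 and 26.7 TPM and then 8.06, 10.4 and 10.1 TPM. In these 4 genes every DIV4 value lay under every DIV2 value. Enpp6 was 199.8, 189.9 and 246 TPM and then 178, 102 and 59.4 TPM. Tmem2, a cell-surface hyaluronidase, was 61.5, 14.2 and 17.9 TPM and then 57.1, 3.6 and 2.93 TPM, nearly level in D7 and well lower in D3 and E8. Cnksr3, a scaffold of Ras signalling, was 95.96, 48.6 and 59.4 TPM and then 68.8, 19.8 and 12.02 TPM. Gpr17, a receptor of premyelinating cells, was 127, 149 and 128 TPM and then 99.4, 132 and 95.8 TPM (limma adjusted p = 0.331).

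Markers of progenitors differed by clone. With 6 and with 12 libraries no member of the 16 tested was called, and without D7 8 were called higher (all tested genes 4.25%). The medians were -0.10, 0.90 and 1.35 in the clones, and 12 of the 16 were higher in D3 and in E8 against 4 in D7. Pdgfra, the receptor for the growth factor PDGF-AA, was 8.44, 33.6 and 6.58 TPM at DIV2 and 10.6, 74.1 and 76.2 TPM at DIV4. All 3 clones were higher at DIV4, E8 by the widest margin, and the stages overlapped. Cspg5, a brain proteoglycan, was 8.41, 18.4 and 15.5 TPM and then 6.1, 42.4 and 97.6 TPM, Ncan, another, was 13.9, 57.4 and 28.2 TPM and then 12.7, 104 and 75.5 TPM, and Pcdh15, a protocadherin, was 2.4, 3.4 and 4.24 TPM and then 2.21, 11.2 and 11.2 TPM. Without D7 these last 3 passed (limma adjusted p = 0.0334, 0.03 and 0.0185). In D7 each was lower or level at DIV4. Sox11, a transcription factor of immature neural cells, was lower in all 3, at 13.6, 9.91 and 17.9 TPM and then 4.26, 7.98 and 7.96 TPM, and Sox4 was 144, 138 and 141 TPM and then 114, 115 and 105 TPM. Bcan and Tnr, the other abundant members, stayed between 49.2 and 167 TPM. Astrocytes and neural stem cells also express several of these proteoglycan genes. The summed astrocyte marker TPM was also higher at DIV4 in D3 and E8 and not in D7 (28.8, 119.6 and 145 and then 23.2, 377 and 773), and its part in the result was not tested.

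Transcription factors of differentiation were close to level. Of 23 tested, 6 were lower in all 3 clones (all tested genes 23.7%) and 1 higher (16.4%). With 12 libraries 1 was called lower (all tested genes 1.6%), and the median change was -0.14. The called gene was Hdac2, a histone deacetylase needed for oligodendrocyte differentiation, at 78.5, 66.7 and 67.5 TPM at DIV2 and 49.3, 48.3 and 43.2 TPM at DIV4 (log2 change -0.58 ± 0.13 SE, limma adjusted p = 0.0383 with 12 libraries). Myt1, a zinc-finger factor of progenitors, was 52.3, 46.4 and 64.7 TPM and then 20.8, 40.2 and 34.2 TPM, and Klf6 was 8.41, 10.3 and 9.07 TPM and then 13.2, 12.96 and 17.8 TPM. For Hdac2, Myt1 and Klf6 the stages did not overlap. Sox10, the lineage regulator of myelin genes, was 192, 166 and 91.5 TPM and then 168, 130.1 and 76.04 TPM. Olig1 was 143, 347 and 157 TPM and then 211, 321 and 314 TPM, higher in D7 and E8 but not in D3, and Sox8 was 52.4, 75.6 and 115 TPM and then 43.2, 62.5 and 64.2 TPM. Thra, the main thyroid hormone receptor of these cells, was 200.4, 121 and 163 TPM and then 239, 82.3 and 76.7 TPM.

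Among the inhibitors of differentiation, the ID genes were low in D7 at both stages. Id3, an ID protein that blocks basic helix-loop-helix factors, was 0.402, 49.5 and 16.4 TPM at DIV2 and 1.3, 94.3 and 70.9 TPM at DIV4. Id2 was 6.02, 55.1 and 31.3 TPM and then 7.02, 95.1 and 95.2 TPM, and Id1 was 0.111, 5.83 and 5.69 TPM and then 0, 14.96 and 16.5 TPM. Id4 was 0.173, 10.2 and 6.42 TPM and then 0, 25.8 and 19.1 TPM, and in D7 Id1 and Id4 were listed at 0 at DIV4. All 4 ID genes were higher at DIV4 in D3 and E8, and without D7 all 4 passed (limma adjusted p = 0.0171 for Id1, 0.0392 for Id2, 0.0375 for Id3 and 0.016 for Id4). Over the list of 15 tested genes 3 were higher in all 3 clones (all tested genes 16.4%), and none was called with 12 libraries. Without D7 6 were called higher (all tested genes 4.25%) and 1 lower (1.58%). The gene called lower was Tfeb, a lysosomal regulator that restrains myelination, at 28.7, 23.1 and 30.2 TPM and then 40.04, 14.7 and 14.7 TPM, higher in D7 only. Tcf4 was 17.6, 35.4 and 27.5 TPM and then 22.8, 41.2 and 40.7 TPM.

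Genes of cholesterol synthesis and uptake were lower at DIV4. Cholesterol is made by oligodendrocytes themselves and limits how fast myelin can grow. Of 23 tested members, 18 were lower in all 3 clones (all tested genes 23.7%) and none higher in all 3. The stages did not overlap for 6 (all tested genes 10.4%), and the median change was -0.71, with -0.34, -1.03 and -0.64 in the clones. No member was higher in D3 or in E8, and 5 were higher in D7. Limma called 1 lower with 12 libraries (all tested genes 1.6%) and 10 without D7 (1.58%). The one called with 12 libraries was Nsdhl, a sterol dehydrogenase, at 25.96, 17.1 and 26.7 TPM and then 16.2, 8.91 and 13.1 TPM (log2 change -0.83 ± 0.13 SE, limma adjusted p = 0.0449). Hmgcs1, an early synthase of the pathway, was 299, 265 and 325 TPM and then 195, 150.5 and 267 TPM. Fdps, farnesyl diphosphate synthase, was 235, 161 and 266 TPM and then 174, 47.2 and 132 TPM. Mvd, mevalonate diphosphate decarboxylase, was 52.3, 30.2 and 50.95 TPM and then 41.1, 10.7 and 28.96 TPM. D3 moved most in both Fdps and Mvd, and D7 least. Fdps and Acat2 share 27.9% and 43.7% of their 31-base words with other genes and are uncertain.

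**Figure D4:**
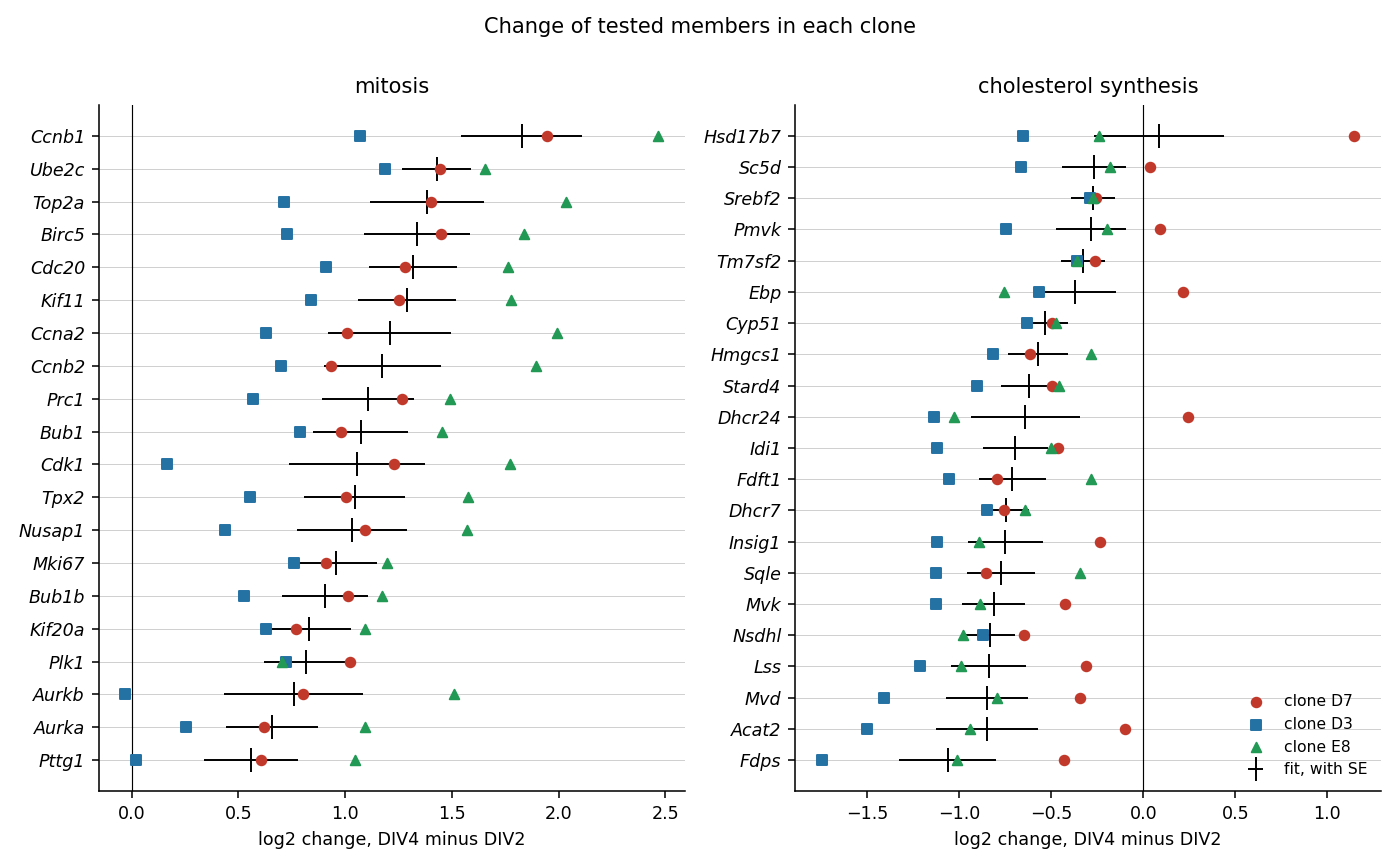
Log2 change from DIV2 to DIV4 of the 20 tested members of the mitosis list (left) and of 21 of the 23 in the cholesterol list (right): coloured points are clones, black marks the fitted change with its SE. Mitotic genes lie right of 0 except Aurkb in D3, and cholesterol genes lie left of 0 in D3 and E8, with Hsd17b7 in D7 at the far right.

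The 250 bases upstream of the start sites of the cholesterol list, whatever the direction of its members, were searched for TCACNCCAC, the sterol regulatory element bound by SREBP factors. Sequences are RefSeq promoters on GRCm38.p6, both strands were searched, and 17 of the 25 list members matched by symbol, untested ones included, with 20 promoters. It occurred in 1 of the 20, that of Hmgcs1, and in 1.05% of all 32851 promoters of the same length. CCAAT, bound by NF-Y, occurred in 16 of the 20 (80.0%) and in 33.9% of all. The Hmgcs1 promoter (chr13:119690101-119690350, plus strand, 5′ to 3′) is shown since it alone holds the element, in capitals.
Hmgcs1: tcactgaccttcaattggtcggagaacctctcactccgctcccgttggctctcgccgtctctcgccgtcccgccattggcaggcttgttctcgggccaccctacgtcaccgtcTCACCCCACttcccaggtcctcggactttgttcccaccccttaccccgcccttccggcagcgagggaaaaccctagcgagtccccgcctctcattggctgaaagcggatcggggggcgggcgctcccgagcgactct

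Genes for galactolipids and sphingolipids, the sugar lipids of myelin, were lower in most members in D3 and E8 but not in D7. Of 18 tested, 6 were lower in all 3 clones (all tested genes 23.7%) and none higher in all 3, and the median change was -0.26, with -0.01, -0.36 and -0.57 in the clones. The 1 gene called lower with 12 libraries (all tested genes 1.6%) was Sgms2, a sphingomyelin synthase, at 20.9, 13.1 and 20.04 TPM and then 11.7, 4.78 and 4.61 TPM (log2 change -1.33 ± 0.23 SE, limma adjusted p = 0.0326). Ugt8a, which makes galactosylceramide, was 614, 299.7 and 404 TPM and then 598, 143 and 104 TPM, level in D7 and lower in D3 and E8. Gal3st1, which adds the sulfate of sulfatide, was 81.5, 61.4 and 74.7 TPM and then 82.5, 36.02 and 35.4 TPM, and Elovl7 was 106, 61.2 and 83.6 TPM and then 112, 38.5 and 27.1 TPM. Without D7, Ugt8a and Gal3st1 passed (limma adjusted p = 0.0311 and 0.0334). Scd2, a desaturase and the most abundant member, was lower in each clone by a small margin, within 409 to 533 TPM. Cers2, the ceramide synthase of very long chains, was 103, 78.3 and 85.9 TPM and then 148, 58.1 and 60.4 TPM, and Degs1, which finishes ceramide, was 66.03, 70.8 and 71.97 TPM and then 105, 60.1 and 63.1 TPM.

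Among 22 tested cytoskeleton and septin genes, 2 were higher in all 3 clones (all tested genes 16.4%) and 3 lower (23.7%), and the median change was -0.10. Beside Sept4, Mapt, the microtubule-binding protein tau, was higher in every clone, at 17.02, 17.7 and 12.98 TPM and then 28.03, 26.01 and 23.1 TPM. Its change of 0.67 ± 0.13 SE passed with 12 libraries (limma adjusted p = 0.035), and the stages did not overlap. Tppp, which organises microtubules in myelin sheaths, was 249, 84.9 and 152 TPM and then 558, 54.5 and 72.7 TPM, higher in D7 and lower in D3 and E8. Tubb2b was 416, 472 and 345 TPM and then 163, 291 and 423 TPM, and 43.1% of its 31-base words occur in other genes. Cfl1, an actin-severing protein with 13.2% shared words, was 544, 546 and 642 TPM and then 507, 434 and 441 TPM, lower in each clone. Sept7 was 254.5, 259 and 189.9 TPM and then 292, 190.2 and 178 TPM, and Map1b was 38.2, 33.7 and 49.2 TPM and then 31.3, 34.4 and 17.9 TPM.

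Genes of mitosis were higher at DIV4, with the same direction in the 3 clones. Of 20 tested members, 19 were higher in all 3 clones (all tested genes 16.4%), for 18 the stages did not overlap (6.2%), and 12 were called higher with 12 libraries (1.96%) and none lower, and 3 without D7 (4.25%). The median change was 1.07, with 1.02, 0.66 and 1.57 in the clones, and the list's summed TPM went from 31.6, 51.4 and 32.1 to 92.4, 90.6 and 140.04. Levels stayed low. Ccnb1, cyclin B1, was 1.19, 3.17 and 1.44 TPM at DIV2 and 7.45, 7.73 and 12.5 TPM at DIV4, a change of 1.83 ± 0.28 SE (limma adjusted p = 0.153, or 0.036 with 12 libraries), and it shares 27.7% of its 31-base words with other genes. Top2a, the DNA topoisomerase of dividing cells, was 2.4, 4.73 and 2.64 TPM and then 8.01, 8.41 and 13.9 TPM (limma adjusted p = 0.0391 with 12 libraries). Prc1, which bundles microtubules between separating chromosomes, was 2.29, 4.23 and 2.42 TPM and then 6.9, 6.76 and 8.6 TPM. In these 3 genes D3 had the highest DIV2 value, and every DIV4 value lay above it. Pttg1, securin, was 7.99, 7.27 and 7.07 TPM and then 12.7, 7.39 and 15.7 TPM, level in D3. The other members called with 12 libraries were Mki67, Bub1, Bub1b, Plk1, Kif11, Kif20a, Birc5, Cdc20 and Ube2c. Mki67, the proliferation antigen, was 0.428, 1.14 and 0.569 TPM and then 1.69, 2.62 and 2.6 TPM, and Aurkb was the 1 tested member not higher in every clone.

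Genes of DNA replication were higher by less. Of 20 tested, 8 were higher in all 3 clones (all tested genes 16.4%), none was lower in all 3, and none was called with 12 libraries. The median change was 0.32, with 0.49, 0.05 and 0.80 in the clones. Rrm1, a ribonucleotide reductase subunit, was 7.71, 11.2 and 9.39 TPM and then 11.02, 11.2 and 17.2 TPM. Pcna, the sliding clamp, was 41.3, 54.1 and 42.3 TPM and then 64.7, 44.1 and 54.3 TPM, Mcm7 was 14.2, 15.6 and 14.9 TPM and then 13.8, 19.7 and 16.3 TPM, and Mcm4 was 6.39, 5.88 and 5.48 TPM and then 6.08, 5.29 and 7.65 TPM. Pcna and Mcm7 share 23.3% and 26.8% of their 31-base words with other genes. The histone genes with symbols starting Hist, chosen as a group after the largest increases were seen, were higher by more. Of 64 tested, 56 were higher in all 3 clones (all tested genes 16.4%) and 1 lower (23.7%). With 12 libraries 30 were called higher (all tested genes 1.96%), and the median change was 1.30. Most (57) share at least 10% of their 31-base words with other genes and are uncertain, and Hist1h1b, with 3.93%, is not among them. Hist1h1b, a linker histone, was 4.54, 11.1 and 4.46 TPM and then 25.05, 27.6 and 54.9 TPM (log2 change 2.28 ± 0.39 SE, limma adjusted p = 0.0364 with 12 libraries). Of the uncertain ones among the largest increases, Hist1h3c was 3.41, 8.82 and 3.63 TPM and then 23.6, 28.2 and 49.6 TPM, Hist1h3b was 3.27, 7.9 and 2.33 TPM and then 13.2, 22.1 and 35.4 TPM, and Hist1h2ab was 4.26, 6.64 and 5.2 TPM and then 15.5, 27.3 and 41.6 TPM. All 3 encode core histones, were higher in every clone and passed with 12 libraries (limma adjusted p = 0.035, 0.0393 and 0.021).

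The same windows of the mitosis list were searched for TTTGAA (the cell cycle homology region, CHR, bound by the DREAM and MuvB complexes) and CCAAT, on both strands. Of the 24 list members, untested ones included, 20 matched by symbol and gave 21 promoters. TTTGAA occurred in 8 of the 21 (38.1%) and in 16% of all 32851 promoters. CCAAT occurred in 18 (85.7%), against 33.9% of all. It was also more frequent than over all promoters in the other lists searched, at 66.7% for DNA replication, 58.1% for the stress list and 80.0% for cholesterol synthesis. The windows of Ube2c, a ubiquitin-conjugating enzyme of the anaphase-promoting complex, and Cdc20, its activator, are shown as examples. They hold both motifs and were among the genes called with 12 libraries (limma adjusted p = 0.0383 and 0.0326). Other genes called there, such as Kif11, Mki67 and Top2a, had both motifs too. Ube2c was 1.82, 2.64 and 1.87 TPM and then 6.69, 7.29 and 8.05 TPM, and Cdc20, with 25.5% of its 31-base words in other genes, was 1.74, 2.56 and 1.78 TPM and then 5.65, 5.69 and 8.42 TPM. Ube2c lies at chr2:164769679-164769928 on the plus strand and Cdc20 at chr4:118437344-118437593 on the minus strand. Capitals mark both motifs on either strand. The first reads TTCAAA on the other strand. The second reads ATTGG there. Ube2c holds 7 matches, of which 1 pair overlaps, and Cdc20 holds 3. A match describes the letters and is not a measured binding site.
Ube2c: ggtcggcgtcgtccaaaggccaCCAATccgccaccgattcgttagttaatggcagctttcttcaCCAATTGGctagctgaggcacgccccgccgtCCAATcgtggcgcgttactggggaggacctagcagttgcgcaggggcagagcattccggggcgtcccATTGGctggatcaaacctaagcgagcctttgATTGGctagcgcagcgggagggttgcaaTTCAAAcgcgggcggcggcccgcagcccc
Cdc20: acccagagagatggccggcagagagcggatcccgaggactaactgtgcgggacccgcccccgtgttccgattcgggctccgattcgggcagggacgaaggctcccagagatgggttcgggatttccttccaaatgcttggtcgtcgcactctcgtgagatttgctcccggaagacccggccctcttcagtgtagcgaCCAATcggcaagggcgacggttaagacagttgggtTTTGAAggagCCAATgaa

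Inhibitors of the cell cycle and targets of p53 were higher too. Of 25 tested, 15 were higher in all 3 clones (all tested genes 16.4%) and 1 lower (23.7%). With 12 libraries 7 were called higher (all tested genes 1.96%) and none lower, and the median change was 0.48. Cdkn1b, the p27 inhibitor that holds oligodendrocytes out of the cycle, was 26.7, 32.4 and 26.999 TPM and then 35.03, 43.96 and 42.4 TPM (limma adjusted p = 0.047 with 12 libraries). Cdkn2a was 28.2, 23.4 and 34.9 TPM and then 35.6, 32.9 and 54.1 TPM, higher in each clone (limma adjusted p = 0.0413 with 12 libraries). Plk2, a p53-induced kinase, was 2.42, 6.42 and 4.93 TPM and then 13.1, 11.2 and 15.9 TPM, and Phlda3, an AKT inhibitor, was 16.2, 19.1 and 13.98 TPM and then 68.9, 30.9 and 41.9 TPM. Gadd45b, a stress-induced gene, was 1.82, 3.25 and 4.62 TPM and then 33.3, 10.1 and 9.69 TPM, highest in D7. In Plk2, Phlda3 and Gadd45b the stages did not overlap. Of these, Plk2 passed with 12 libraries (limma adjusted p = 0.0442). Ccng1, the most abundant member, was 54.1, 61.6 and 73.1 TPM and then 67.3, 76.4 and 113 TPM. Sesn2, which restrains mTORC1, was 4.38, 6.98 and 7.44 TPM and then 4.59, 35.1 and 25.99 TPM, and Bax, of the cell death pathway, was 66.7, 62.3 and 72.1 TPM and then 61.4, 60.5 and 81.2 TPM. The other members called higher with 12 libraries were Cdkn1a, Gadd45g, Btg2 and Eda2r. Cdkn1a, the p21 inhibitor, was 1.6, 2.92 and 4.88 TPM and then 4.11, 8.77 and 8.98 TPM (limma adjusted p = 0.047 with 12 libraries).

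The integrated stress response is the program by which ATF4 raises amino acid supply when translation is held back, and its genes had larger values of change in D3 and E8 than in D7, a difference between clones that was not tested. Of 27 tested genes of this and the unfolded protein response, 12 were higher in all 3 clones (all tested genes 16.4%) and 2 lower (23.7%). With 12 libraries 4 were called higher (Ddit3, Trib3, Atf3 and Slc3a2; all tested genes 1.96%), and 16 without D7 (4.25%). Of the 27, 14 were higher in D7, 20 in D3 and 21 in E8, and the median changes were 0.05, 1.504 and 0.97. Chac1, which degrades glutathione, was 1.62, 2.97 and 1.12 TPM at DIV2 and 1.25, 64.7 and 31.9 TPM at DIV4. Slc7a5, an importer of large amino acids, was 0.79, 3.36 and 1.84 TPM and then 1.14, 77.3 and 26.5 TPM. Trib3, a pseudokinase target of ATF4, was 0.506, 0.324 and 0.0191 TPM and then 1.91, 21.6 and 9.58 TPM. All 3 passed without D7 (limma adjusted p = 0.00302, 0.00796 and 0.00796), with log2 changes of 4.00, 3.72 and 3.73. In D7 Chac1 was lower, Slc7a5 stayed near 1 TPM, and Trib3 was higher by 0.95 on the log2 scale. Trib3 did not overlap between stages and passed with 12 libraries (limma adjusted p = 0.04). Pck2, a mitochondrial enzyme outside the list, was close to level in D7, at 0.358, 1.12 and 0.365 TPM and then 0.44, 26.3 and 8.38 TPM.

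Slc3a2, the partner chain of Slc7a5, was higher in every clone, at 14.4, 17.3 and 17.95 TPM and then 26.4, 116 and 64.3 TPM, and passed with 12 libraries (log2 change 1.76 ± 0.35 SE, limma adjusted p = 0.0383). Atf4 itself was 71.6, 83.7 and 74.6 TPM and then 54.7, 139.7 and 104 TPM, higher in D3 and E8 and lower in D7. Of 2 abundant chaperones in the list, Hspa5 (BiP) was 93.2, 132 and 95.3 TPM and then 80.7, 56.7 and 111 TPM, and Hsp90b1 was 86.4, 86.4 and 80.7 TPM and then 59.8, 52.9 and 70.9 TPM, lower in each clone (limma adjusted p = 0.269). Ddit3, the factor CHOP, was 8.57, 9.67 and 7.47 TPM and then 14.1, 29.3 and 17.9 TPM, higher in every clone (limma adjusted p = 0.0339 with 12 libraries). Psat1, of serine synthesis, was 90.6, 99.2 and 126 TPM and then 84.5, 129 and 99.4 TPM.

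The letters TGATGNAA, the C/EBP-ATF response element (CARE), occurred in 7 of the 31 promoters of the 27 members of the stress list that matched by symbol, untested ones included (22.6%), those of Asns, Atf3, Chac1, Herpud1, Nupr1, Slc7a11 and Vldlr. It occurred in 3.45% of all 32851 promoters. The windows of Chac1 and Asns are shown since both genes were called without D7 and hold the letters (in capitals; TTNCATCA is the reverse complement). Asns, asparagine synthetase, was 30.7, 28.7 and 32.8 TPM at DIV2 and 18.4, 177 and 76.7 TPM at DIV4 (limma adjusted p = 0.0317 without D7). Chac1 lies at chr2:119350992-119351241 on the plus strand and Asns at chr6:7693210-7693459 on the minus strand.
Chac1: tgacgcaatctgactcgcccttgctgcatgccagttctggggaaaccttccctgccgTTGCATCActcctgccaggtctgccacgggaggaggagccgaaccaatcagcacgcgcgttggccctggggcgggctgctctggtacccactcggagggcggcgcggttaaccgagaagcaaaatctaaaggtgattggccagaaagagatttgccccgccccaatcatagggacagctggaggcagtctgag
Asns: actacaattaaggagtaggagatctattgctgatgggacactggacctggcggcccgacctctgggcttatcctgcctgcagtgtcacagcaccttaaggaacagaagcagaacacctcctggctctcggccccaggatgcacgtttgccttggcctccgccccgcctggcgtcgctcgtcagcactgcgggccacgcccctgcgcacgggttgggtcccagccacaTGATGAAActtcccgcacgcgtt

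Immediate early genes, which respond fast to signals, were higher. Of 11 tested, 10 were higher in all 3 clones (all tested genes 16.4%), and 4 were called with 12 libraries, all higher (all tested genes 1.96%). They were Fosl2, Jun, Ier2 and Atf3, of which Atf3 also counts in the stress list. The median change of the 11 was 0.85, with 0.55, 0.85 and 1.07 in the clones. Jun was 16.6, 12.6 and 7.5 TPM and then 34.9, 23.05 and 22.8 TPM, without overlap (log2 change 1.11 ± 0.17 SE, limma adjusted p = 0.0326 with 12 libraries). Fos was 15.4, 23.7 and 17.4 TPM and then 17.3, 48.4 and 41.5 TPM, Junb was 2.8, 9.18 and 5.46 TPM and then 3.9, 16.6 and 20.7 TPM, and Dusp6, a phosphatase of ERK, was 0.942, 4.44 and 2.69 TPM and then 1.85, 7.48 and 12.6 TPM. Jund, a further AP-1 member, was 7.95, 8.52 and 7.47 TPM and then 14.2, 10.002 and 9.83 TPM. D7 had the smallest log2 difference in Fos and Junb.

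The glycolysis and hypoxia list of 22 tested genes, in which no direction was shared, had a median change of -0.07. In all 3 clones 5 were higher (all tested genes 16.4%) and 6 lower (23.7%). With 12 libraries Slc16a1, Vegfa, Ndrg1 and Ddit4 were called higher (4 genes, all tested genes 1.96%) and 1 lower (Pfkl, all tested genes 1.6%). Ndrg1 also counts in the mature oligodendrocyte list. Slc16a1, the lactate transporter MCT1 through which oligodendrocytes supply axons, was 5.81, 6.62 and 5.19 TPM at DIV2 and 16.2, 21.3 and 16.3 TPM at DIV4. Its change of 1.46 ± 0.13 SE had a limma adjusted p of 0.12, or 0.021 with 12 libraries. Vegfa, the vascular growth factor, was 1.78, 1.99 and 2.01 TPM and then 9.85, 12.4 and 5.87 TPM (limma adjusted p = 0.025 with 12 libraries). Ddit4, a hypoxia-induced inhibitor of mTORC1, was 32.9, 27.96 and 29.9 TPM and then 85.03, 51.4 and 48.8 TPM (limma adjusted p = 0.0342 with 12 libraries). In these 3 genes every DIV4 value lay above every DIV2 value. Pfkl, a phosphofructokinase, was 13.1, 13.4 and 15.7 TPM and then 9.34, 7.08 and 9.65 TPM (limma adjusted p = 0.0442 with 12 libraries). Gapdh was 129, 139.8 and 201 TPM and then 102, 154 and 173 TPM, Pkm was 193, 203 and 198 TPM and then 167, 168 and 212 TPM, Pgk1 was 320.5, 214 and 394 TPM and then 296, 163 and 237 TPM, and Aldoa was 129.9, 139.5 and 174 TPM and then 119.5, 116 and 136 TPM. These last 4 share 27.2%, 34.7%, 54.7% and 17.0% of their 31-base words with other genes and are uncertain. Aldoc, aldolase C, which astrocytes also express, was higher in D3 and E8 and lower in D7 (25.2, 63.0 and 58.8 TPM and then 17.03, 107 and 208 TPM).

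Among 11 tested genes of interferon response and antigen presentation, 4 were higher in all 3 clones (all tested genes 16.4%) and 1 lower (23.7%). B2m, the light chain of class I molecules, was 8.54, 17.4 and 13.5 TPM and then 18.5, 31.97 and 45.9 TPM (log2 change 1.19 ± 0.20 SE, limma adjusted p = 0.0398 with 12 libraries), and its stages did not overlap. Stat2, an interferon-activated factor, was 7.8, 6.1 and 7.1 TPM and then 7.997, 4.37 and 5.17 TPM. H2-D1, a class I heavy chain with 26.7% shared words, was 2.22, 4.99 and 6.34 TPM and then 4.32, 6.05 and 10.9 TPM, and Ifi27 was 25.1, 23.8 and 36.5 TPM and then 22.8, 28.9 and 43.3 TPM.

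Of 8 tested genes of the thyroid hormone system, 2 were higher in all 3 clones (all tested genes 16.4%) and none lower in all 3 (23.7%). Klf9, a direct target of the hormone receptor, was 58.8, 43.2 and 60.2 TPM and then 89.5, 45.5 and 31.6 TPM, higher in D7 and lower in E8, and Hr, another, was 25.001, 19.8 and 31.6 TPM and then 48.4, 34.9 and 24.2 TPM. Among the partners of the receptor, Rxra was 4.05, 7.56 and 2.84 TPM and then 4.08, 7.43 and 5.25 TPM, Rxrb was 14.9, 15.7 and 13.1 TPM and then 16.5, 16.98 and 14.9 TPM, and the corepressor Ncor1 was 48.6, 31.9 and 34.4 TPM and then 45.9, 37.3 and 26.6 TPM. Of 11 tested extracellular matrix genes, 4 were higher in all 3 clones (all tested genes 16.4%) and 1 lower (23.7%). Col11a1, a fibrillar collagen, was lower in each clone, at 172, 185 and 176 TPM and then 64.3, 119 and 82.9 TPM (log2 change -1.04 ± 0.18 SE, limma adjusted p = 0.0374 with 12 libraries). Sparc, a matrix glycoprotein that astrocytes also secrete, was 1.42, 9.61 and 10.3 TPM and then 3.31, 26.2 and 32.6 TPM (limma adjusted p = 0.0326 with 12 libraries). Col18a1, a basement membrane collagen, was the other member called higher with 12 libraries (limma adjusted p = 0.025), at 0.207, 0.852 and 0.506 TPM and then 1.04, 2.62 and 1.7 TPM. Timp3, a protease inhibitor, was 75.6, 43.3 and 35.8 TPM and then 97.5, 47.01 and 23.02 TPM, Lamc1, a laminin chain, was 10.9, 15.3 and 15.6 TPM and then 8.94, 15.6 and 10.3 TPM, and Mmp15 was 5.07, 13.7 and 6.94 TPM and then 4.72, 19.6 and 21.3 TPM.

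**Figure D5:**
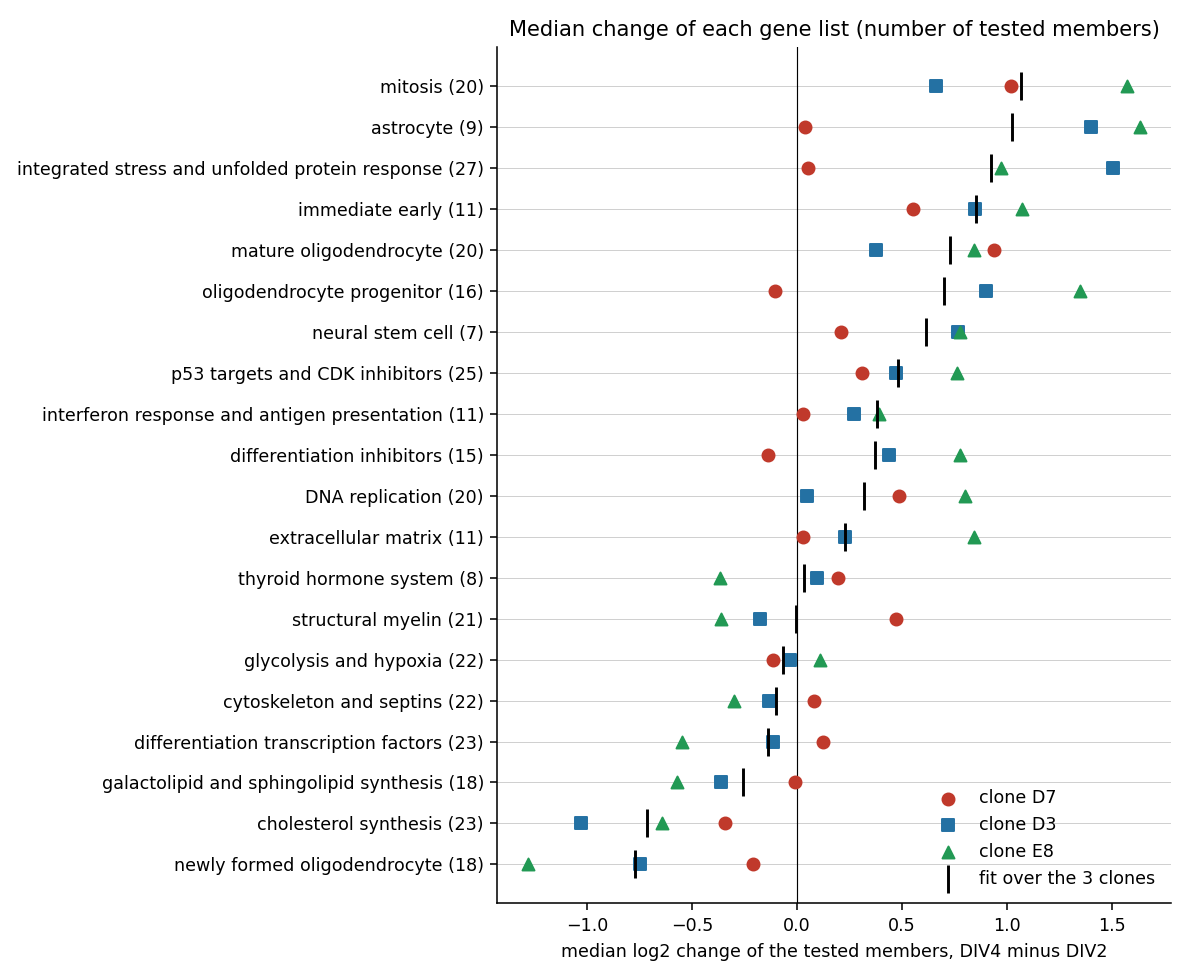
Median log2 change from DIV2 to DIV4 of the tested members of each list with at least 5 tested genes, in each control clone and in the fit over the 3 clones (black bars). Mitosis, immediate early, mature oligodendrocyte and p53 lists lie right of 0 and cholesterol and newly formed lists left of 0 in all 3 clones, while D7 lies apart from D3 and E8 for the stress, astrocyte, progenitor and structural myelin lists.

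Astrocyte markers separated the clones at both stages. The summed TPM of the 13 markers was 28.8, 119.6 and 145 at DIV2 and 23.2, 377 and 773 at DIV4. Of 9 tested, 6 were higher at DIV4 in all 3 clones (all tested genes 16.4%). Fgfr3 was the 1 called higher with 12 libraries (all tested genes 1.96%), and 7 were called higher without D7 (4.25%). Gfap was at the levels given above, and without D7 its log2 change was 2.99 (limma adjusted p = 0.0133). D7 had been set apart on its Gfap values, so the fit without D7 is no independent check for Gfap or the other astrocyte markers. Slc1a3, the glutamate transporter GLAST, was 0.151, 9.14 and 35.3 TPM and then 0.463, 38.9 and 110.4 TPM. Slc1a2, the transporter GLT-1, was 0.398, 7.19 and 6.64 TPM and then 0.179, 41.9 and 45.9 TPM. S1pr1, a lipid receptor, was 0.059, 2.24 and 3.83 TPM and then 0.0353, 11.1 and 16.1 TPM. Aldoc is given above. The defining connexins Gja1 and Gjb6 were at or near 0 in all 6 libraries, and Sox9 and Cd44 had means under 1 TPM. Several genes of neural stem cells that astrocytes share were higher too. Vim, vimentin, was 14.8, 194 and 131 TPM and then 29.3, 572 and 666 TPM, and it passed with 12 libraries (limma adjusted p = 0.0317). Msi1, an RNA-binding protein of neural stem cells, passed too (limma adjusted p = 0.047), at 0.97, 2.09 and 2.72 TPM and then 2.49, 4.92 and 4.59 TPM. Fabp7 was 31.01, 184 and 278 TPM and then 30.9, 313 and 589.8 TPM, and Nes, nestin, was 1.19, 3.01 and 1.9 TPM and then 1.54, 13.8 and 8.98 TPM, whereas Sox2 was lower in each clone, at 142, 109 and 136 TPM and then 78.5, 84.9 and 94.5 TPM. Prom1 was 3.3, 0.571 and 14.5 TPM and then 13.7, 1.24 and 4.85 TPM. The part of these cells in the lists that differ between D7 and the other clones was not tested.

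Other cell types were scarcely seen. Of the 10 microglia and 12 mesenchymal or vascular markers 1 each (P2ry12 and Myl9) reached a mean of 1 TPM. Their sums were at most 2.66 and 6.50 TPM. Of 16 neuron markers 3 were tested, none had 1 direction in all clones, and Tubb3, a tubulin that maturing oligodendrocytes also carry, was 84.6, 84.8 and 74.6 TPM and then 135, 55.001 and 105 TPM. Elavl3 was 31.3, 25.96 and 37.5 TPM and then 41.5, 18.1 and 13.9 TPM, and Dcx was 2.6, 6.92 and 10.02 TPM and then 1.51, 9.66 and 7.05 TPM. The other 13 neuron markers, Snap25 among them, had means under 1 TPM.

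Differences between the clones over both stages were tested in the same fit. No gene was called (limma, adjusted p from 0.0613, 0% of 10834), and 1947 (18%) had an unadjusted p under 0.05. The 6 genes with the smallest p were Gng4, Id3, Hexa, Mt3, Ntm and Slc1a3, with an adjusted p of 0.0613 each. Each was lowest in D7. Gng4, a G-protein subunit, was 0.216, 12.2 and 5.71 TPM at DIV2 and 0.189, 10.3 and 4.41 TPM at DIV4, and the clones did not overlap. Hexa, a lysosomal hexosaminidase, was 3.57, 19.03 and 23.2 TPM and then 4.41, 30.2 and 36.8 TPM. Mt3, a metallothionein of astrocytes, was 0.256, 19.9 and 42.5 TPM and then 0.842, 78.002 and 205 TPM, and Ntm, an adhesion protein, was 0.509, 17.4 and 7.13 TPM and then 1.2, 28.1 and 20.7 TPM. Kdm5d, a gene of the Y chromosome named after its values were seen, was 9.86, 0.183 and 0.463 TPM and then 9.08, 0.29 and 0.108 TPM, while 3 other genes of that chromosome (Ddx3y, Eif2s3y and Uty) were at 7.41 TPM or more in all 6 libraries.

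The change from DIV2 to DIV4 was compared with that in the Thap1 null clones through the interaction in the 12-library fit, null change minus control change. No gene was called (limma, adjusted p from 0.0549, 0% of 10773 genes), and 1725 (16%) had an unadjusted p under 0.05. The 12-library fit called 1802 genes (16.7%) for the null change and 383 for the control change, and those counts do not test the difference. The smallest p belonged to Hist1h2ae (interaction -2.77 ± 0.23 SE, limma adjusted p = 0.0549), which shares 47.9% of its 31-base words with other genes, and then to Eps8 (-1.62 ± 0.16 SE, limma adjusted p = 0.0782). Mitotic genes had a median interaction of -1.44, and all 20 had an unadjusted limma p under 0.05 (all tested genes 16%). Among the genes tested in this fit, the count was 15 of 23 for cholesterol, 10 of 24 for p53 and 9 of 19 for DNA replication. It was 7 of 27 for stress and 1 of 18 for galactolipid and sphingolipid genes. The mean log2 level of the mitosis list, rescaled over the 12 libraries, differed between DIV4 and DIV2 by 1.01 ± 0.41 (SD, n = 3) in the control clones and by -0.38 ± 0.36 (SD, n = 3) in the null clones. For cholesterol genes the difference was -0.60 ± 0.33 in the control and -1.33 ± 0.22 in the null clones (SD, n = 3 each), with a median interaction of -0.62. For stress genes it was 0.77 ± 0.65 and 1.38 ± 0.04 (SD, n = 3 each), and the null clones lay between 1.33 and 1.41, above the 3 control values of 0.03, 1.26 and 1.01. These list values were not tested.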

How the data were processed

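RNA abundance was measured in 6 control libraries, and 12 further libraries of the series served for comparison. The authors deposited TPM per transcript (93666 transcripts), and reads were handled with STAR and Picard on mm10, per the submitters' processing notes. The quantifier and annotation are not given in the sources used here. TPM of protein_coding transcripts was summed by gene name (25 names turned into dates were restored) and divided by median-of-ratios factors (0.623 to 1.34, from 14334 genes). Genes averaging 1 TPM or more were fitted in limma 3.58.1 (R 4.3.3) on log2(TPM + 1) with clone and stage, eBayes with trend (2 residual and 3.40 prior degrees of freedom), and Benjamini-Hochberg adjustment; the script was tested on simulated data. Libraries were paired by clone, since the labels give both stages of a clone the same line name, and deviations from stage means correlated within clones (0.66, 0.59 and 0.36 for D7, D3 and E8), while between clones the value was 0.32 for D3 at DIV2 with E8 at DIV4 and -0.57 to -0.04 for the other pairs. The 12-library fit adds the null clones at DIV2 and DIV4 and pools the residual spread over both genotypes.

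Lists and members were chosen with earlier results of these data known. Of 454 list symbols, 4 were not in the table used (9630013A20Rik, Lhfpl3, Zfp24, Msmo1). The lists hold 472 entries, so some genes count in more than 1 list. Named were the 12 largest increases and 12 largest decreases among genes averaging 5 TPM or more, 1 direction in all clones and an unadjusted p under 0.05 (no gene was called), the 6 smallest p between clones, and up to 4 members per list by level and 4 by change. Some genes that this rule names are not reported here. Other members were named after their values were seen. Genes sharing at least 10% of their 31-base words with another gene (GENCODE M21 transcripts) are uncertain; 35 tested genes had no such value.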

Additional observations from a re-analysis of the deposited data

Results flagged for a closer look

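These 5 results differed between DIV2 and DIV4 in one direction in all 3 control clones and in the opposite direction in all 3 null clones. The difference between the genotypes was not tested for the 2 lists. The mean log2(TPM + 1) of the mitosis list differed by 1.01 in the control clones (0.99 in D7, 0.60 in D3, 1.43 in E8) and by -0.38 in the null clones (-0.32 in 3F, -0.78 in D6, -0.06 in 7F). That of the DNA replication list differed by 0.38 in the control clones and by -0.23 in the null clones. The genes searched for this pattern were the 24 largest changes. They had been chosen for 1 direction in all 3 control clones, so only the directions in the null clones were free. Of these genes, Synpr, Hist1h1b and Hist1h2ab were higher at DIV4 in each control clone and lower in each null clone. Hist1h2ab is uncertain, since 63% of its 31-base words occur in other genes. The interaction was -3.88 for Synpr (limma adjusted p = 0.123), -3.42 for Hist1h1b (limma adjusted p = 0.102) and -2.74 for Hist1h2ab (limma adjusted p = 0.0803), so none passed.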

How the results depend on the processing

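No gene was called for DIV4 against DIV2 in the 6-library fit, nor without the replicate block (1035 genes at an unadjusted p under 0.05), with coding totals set equal, quantile normalization, all biotypes, no filter or a filter at 5 TPM, a pseudocount of 0.1, eBayes without trend, or a log2 change of at least 1. The count was 383 with 12 libraries and the clone as a block, 375 (325 higher, 50 lower) with TPM as deposited, and 26 (18 higher) with 18 libraries and no block, an alternative chosen after seeing the data; those 26 were all among the 383. Leaving out a clone gave 0 to 631 genes, with 631 without D7 and 0 without D3 or E8. The number of genes called between clones was 1021 with TPM as deposited and 64 with a pseudocount of 0.1, and the number called for the interaction was 65 with TPM as deposited and 1 without the replicate block. For TPM as deposited the cause of the higher counts was not tested.

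The 24 largest changes kept their direction under all these settings. They had been chosen for the same direction in all 3 clones, so only settings that change the TPM values could have reversed them. Leaving out a clone could not, nor could dropping the replicate block, another filter or pseudocount, or eBayes without trend. The fits with 12 and 18 libraries average the same control libraries, rescaled. For these settings the kept direction is therefore no independent check. Of the 24, 16 passed with 12 libraries, 24 with TPM as deposited, 22 without D7 and 4 with 18 libraries. Among the mean log2 levels of the 23 lists, that of structural myelin was 0.19 over the 3 clones and -0.17 without D7, differentiation factors -0.12 and 0.0143 without E8, cytoskeleton 0.04 and -0.10 without D7, neuron 0.00357 and -0.00429 without D7, and microglia -0.0219 but 0.0161 with coding totals set equal and 0.0417 with a pseudocount of 0.1. The other 18 list levels kept their sign. TPM keeps no depth, so counting error could not be set beside any value.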

Other observations

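The genes whose change in D7 departed most from that in D3 and E8 (mean of at least 5 TPM, chosen after their values were seen) included 2 groups. On the low side were Eif4ebp1, Chac1, Mthfd2, Slc7a5, Pck2 and Trib3, all known targets of ATF4. Gm11032, which departed most, Gm10974, S100a10, Rps3a1, S100a4 and Rps2-ps6 were on the low side too and are outside that group. Eif4ebp1, which encodes a brake on translation, was 2.13, 2.24 and 1.22 TPM at DIV2 and 0.909, 68.7 and 24.6 TPM at DIV4 in D7, D3 and E8. On the high side were Tmem98 and Mobp, both of oligodendrocytes, and 9 predicted genes (Gm10717 to Gm10721, Gm10800, Gm10801, Gm11168 and Gm21738) that were higher at DIV4 in D7 and lower in D3 and E8. Between 36.2% and 94.4% of the 31-base words of these 9 occur in other genes, so their values are uncertain. Apoe, the lipid carrier made by astrocytes, was 1.27, 28.3 and 61.3 TPM at DIV2 and 2.36, 212 and 433 TPM at DIV4, lowest in D7 at both stages. Thap1 itself was 2.99, 3.86 and 4.27 TPM and then 5.71, 4.45 and 3.45 TPM in the control clones.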
